A study of Homo sapiens with 12 samples.

Results

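The genes described here encode the smooth muscle contractile machinery that stellate cells take on when they become myofibroblasts. The 10 members were chosen by symbol from 60612 genes in the deposited table: ACTA2, TAGLN, MYL9, CNN1, CNN2, SMTN, CALD1, TPM1, TPM2 and TPM4, together with the 38 annotated transcripts of TPM1 and the 24 of CALD1. All 10 passed the filter on low counts and were among the 21328 genes tested.

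Polyadenylated RNA was measured in LX2 cells, an immortalised line derived from human hepatic stellate cells and labelled wild type, in 3 groups of 4 libraries. In the first, 10 µM STINGX, a compound known by its code name, was given 3 h ahead of 5 ng/ml TGFb for 16 h (STINGX with TGFb), the second had only the TGFb, at 5 ng/ml for 16 h (TGFb), and the third was left untreated (control). All groups had been deprived of serum for 16 h, starting 24 h after seeding. Cells given STINGX without TGFb were not analysed here, so an effect of the compound on the response to TGFb and an effect of the compound by itself cannot be told apart. All 12 libraries come from 1 cell line. The labels do not say that replicates were separate cultures, so p-values measure the spread between these libraries, which may be technical. Fewer cells of a kind and less RNA per cell cannot be told apart in bulk RNA of this sort.

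In contractile cells, force comes from myosin sliding on filaments of actin, and phosphorylation of the regulatory light chain of myosin starts it. Tropomyosin runs along the actin filament, and caldesmon and calponin bind the filament and restrain the myosin ATPase. Transcription of many of these genes is driven by serum response factor (SRF) with its myocardin-family partners at CArG boxes, and by SMAD proteins downstream of TGFb. Smooth muscle actin, the product of ACTA2, is the usual marker of an activated stellate cell in fibrotic liver.

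Library totals ranged from 54035320 to 70787741 estimated counts, which puts 1 count at 0.0141 to 0.0185 CPM (counts scaled to a common library total) before TMM scaling. For every comparison within a gene below, CPM values were scaled by the trimmed mean of M values (TMM). The biological coefficient of variation over all genes was 28.0%. The labelled cell type was checked with marker genes on the FPKM scale (fragments scaled to transcript length and library total). Of 10 markers of stellate cells or fibroblasts, 3 stayed under 1 FPKM, namely DES and LRAT, which were at 0, and RELN. Their summed FPKM, mostly COL1A1, was 206.3 to 208.7 with STINGX and TGFb, 637.3 to 674.3 with TGFb and 313.2 to 318.9 in controls. COL1A1 itself was 160.6 to 162.0 FPKM with STINGX and TGFb, 553.3 to 585.4 FPKM with TGFb and 211.1 to 217.3 FPKM in controls. COL1A2 and PDGFRB were also higher with TGFb than in controls, whereas COL3A1, LUM, HAND2 and NGFR were lower. The rise of the sum with TGFb therefore follows COL1A1 and not the list as a whole. The lower sum with STINGX and TGFb than in controls came from COL3A1 as well as COL1A1. COL3A1 was 23.0 to 25.0 FPKM with STINGX and TGFb, 40.5 to 42.7 FPKM with TGFb and 71.5 to 73.7 FPKM in controls. Against controls COL1A2, PDGFRB, LUM and NGFR were lower too with STINGX and TGFb, HAND2 overlapped and RELN was higher. Markers of mature smooth muscle were low, with sums of 19.0 to 21.6 FPKM with STINGX and TGFb, 18.4 to 23.5 FPKM with TGFb and 12.04 to 16.4 FPKM in controls, nearly all of it SMTN, ACTG2 and MYOCD. MYH11, the smooth muscle myosin heavy chain, stayed between 0.01 and 0.04 FPKM, LMOD1 stayed under 1 FPKM, and DES was at 0 in all 12 libraries. Of 12 markers of skeletal or cardiac muscle, 10 stayed under 1 FPKM and MYH7, TNNT3, MYOD1 and MYOG were at 0; their sum, mostly TNNT1, was 27.4 to 30.7 FPKM with STINGX and TGFb, 18.9 to 19.9 FPKM with TGFb and 25.9 to 30.2 FPKM in controls. Hepatocyte markers summed to at most 0.0863 FPKM in any library, with ALB, TTR and FGB at 0, and endothelial markers to at most 0.779 FPKM. Of 4 macrophage or leukocyte markers, PTPRC and CD163 stayed under 1 FPKM, and the sum, mostly CD68, was 29.4 to 35.6 FPKM with STINGX and TGFb, 9.23 to 10.9 FPKM with TGFb and 30.1 to 32.1 FPKM in controls. CD68 itself was 28.2 to 34.2 FPKM with STINGX and TGFb, 8.06 to 9.96 FPKM with TGFb and 22.5 to 23.9 FPKM in controls. CD14 was 0.924 to 1.48 FPKM with STINGX and TGFb, 0.852 to 1.45 FPKM with TGFb and 6.89 to 9.21 FPKM in controls. Of 4 epithelial markers, KRT19, EPCAM and CDH1 stayed under 1 FPKM, and the sum, mostly KRT7, was 1.92 to 2.43 FPKM with STINGX and TGFb, 5.35 to 6.70 FPKM with TGFb and 2.37 to 3.74 FPKM in controls. The part of other cell types in the results was not tested.

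The sequences that bear on these genes are the promoters with a CArG box, the site that SRF binds. In RefSeq (GRCh38.p14) 18 promoter windows were found for 8 of the 10 members, each from 250 bases before to 50 bases after a transcription start. TAGLN and MYL9 had no entry. The window of TPM1, chr15:63048239-63048538, lay at an internal start of the gene. The upstream start, whose transcripts held most TPM1 counts, had no window and was not searched. A full CArG box was found on either strand in 3 of the 18 windows, in CNN2, SMTN and TPM4, against 1.29% of all 35116 windows of that length. A CArG box with 1 G or C in its core was found in 2 of the 18, a window of ACTA2, which holds 2 boxes, and a window of CALD1, against 6.94% of all windows. That CALD1 window, chr7:134711249-134711548, lay before the annotated span of the gene. The 4 windows inside the genes' annotated spans or at their starts are printed 5′ to 3′ on the strand of the gene, with the CArG letters in capitals; the boxes start at positions -121 and -71 from the transcription start in ACTA2, -89 in CNN2, -44 in SMTN and -173 in TPM4.
ACTA2 promoter, chr10:88952724-88953023, minus strand: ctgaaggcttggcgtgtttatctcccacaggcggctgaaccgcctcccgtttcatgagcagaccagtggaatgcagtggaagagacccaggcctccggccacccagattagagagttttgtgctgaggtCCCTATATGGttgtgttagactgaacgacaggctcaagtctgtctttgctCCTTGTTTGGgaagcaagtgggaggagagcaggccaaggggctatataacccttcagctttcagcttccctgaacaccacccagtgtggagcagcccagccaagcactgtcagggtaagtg
CNN2 promoter, chr19:1026358-1026657, plus strand: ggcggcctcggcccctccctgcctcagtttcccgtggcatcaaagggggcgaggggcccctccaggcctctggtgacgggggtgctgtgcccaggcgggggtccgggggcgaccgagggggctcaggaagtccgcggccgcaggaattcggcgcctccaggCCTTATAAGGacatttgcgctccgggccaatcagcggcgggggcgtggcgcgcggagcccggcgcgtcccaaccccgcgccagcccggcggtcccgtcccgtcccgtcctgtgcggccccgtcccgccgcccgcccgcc
SMTN promoter, chr22:31084746-31085045, plus strand: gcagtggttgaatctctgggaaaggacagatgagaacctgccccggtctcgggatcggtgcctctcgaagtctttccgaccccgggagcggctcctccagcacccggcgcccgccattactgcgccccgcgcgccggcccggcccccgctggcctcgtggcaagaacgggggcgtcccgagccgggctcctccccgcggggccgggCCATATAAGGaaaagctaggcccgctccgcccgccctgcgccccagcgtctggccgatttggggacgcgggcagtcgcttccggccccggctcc
TPM4 promoter, chr19:16067288-16067587, plus strand: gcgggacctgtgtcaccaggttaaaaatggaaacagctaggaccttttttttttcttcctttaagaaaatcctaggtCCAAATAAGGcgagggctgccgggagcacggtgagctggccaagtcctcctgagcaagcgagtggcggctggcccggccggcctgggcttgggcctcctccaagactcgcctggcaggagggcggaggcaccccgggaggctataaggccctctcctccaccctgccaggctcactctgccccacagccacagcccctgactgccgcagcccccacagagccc
The TEAD motif GGAATG was found, on either strand, in 4 of the 18 windows, in ACTA2, CALD1 and SMTN, against 14% of all windows. The palindromic SMAD motif GTCTAGAC was found in 0 of the 18, against 0.202% of all windows. A TATA motif, TATAAA, was found in 1 of the 18, in a CALD1 window, against 11.5% of all windows. It began at position -233, in the window chr7:134891208-134891507 at an internal start. Transcripts from that start held 16.9% of CALD1 counts with STINGX and TGFb, mostly through replicate 2, 0.751% with TGFb and 0.0417% in controls. Only the exact letters TATAAA were counted, so related runs such as tatataa in the printed ACTA2 window were not. These matches describe letters in short windows and are not measured binding.

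On a per-length scale, MYL9 was the most abundant of the 10 in every group and CNN1 and ACTA2 were the 2 lowest. MYL9, the regulatory light chain, averaged 192.2 ± 3.59 FPKM with STINGX and TGFb, 241.7 ± 4.59 FPKM with TGFb and 147.9 ± 9.45 FPKM in controls (SD, n = 4 each, as for every mean below). It lay at percentile 99.5 of the tested genes with STINGX and TGFb, 99.6 with TGFb and 99.3 in controls. The 3 tropomyosins came next in TGFb-treated cells, where TPM1 averaged 84.1 ± 8.002, TPM2 81.2 ± 1.01 and TPM4 67.9 ± 13.0 FPKM; each overlapped its neighbour in this order, and TPM4 overlapped TAGLN at 64.2 ± 4.78 FPKM. With STINGX and TGFb, TPM4 (63.8 ± 10.1 FPKM) and TPM2 (56.6 ± 2.002 FPKM) overlapped each other and lay above TPM1 (46.5 ± 4.68 FPKM). In controls, TPM2 (71.3 ± 1.47 FPKM) and TPM4 (61.0 ± 1.16 FPKM) lay well above TPM1 (26.9 ± 3.65 FPKM), and all 3 were apart from one another. TAGLN averaged 32.6 ± 3.33 FPKM with STINGX and TGFb, where it overlapped CALD1, and 12.5 ± 1.005 FPKM in controls, where it overlapped SMTN. ACTA2 was low, at 4.64 ± 0.324 FPKM with STINGX and TGFb, where it overlapped CNN1, 12.1 ± 0.715 FPKM with TGFb, where it overlapped SMTN, and 8.79 ± 0.594 FPKM in controls, where it again overlapped SMTN. Together the 10 genes held 0.354% ± 0.0126 of a library's counts with STINGX and TGFb, 0.490% ± 0.0170 with TGFb and 0.274% ± 0.00601 in controls, and the 3 groups did not overlap.

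**Figure D1:**
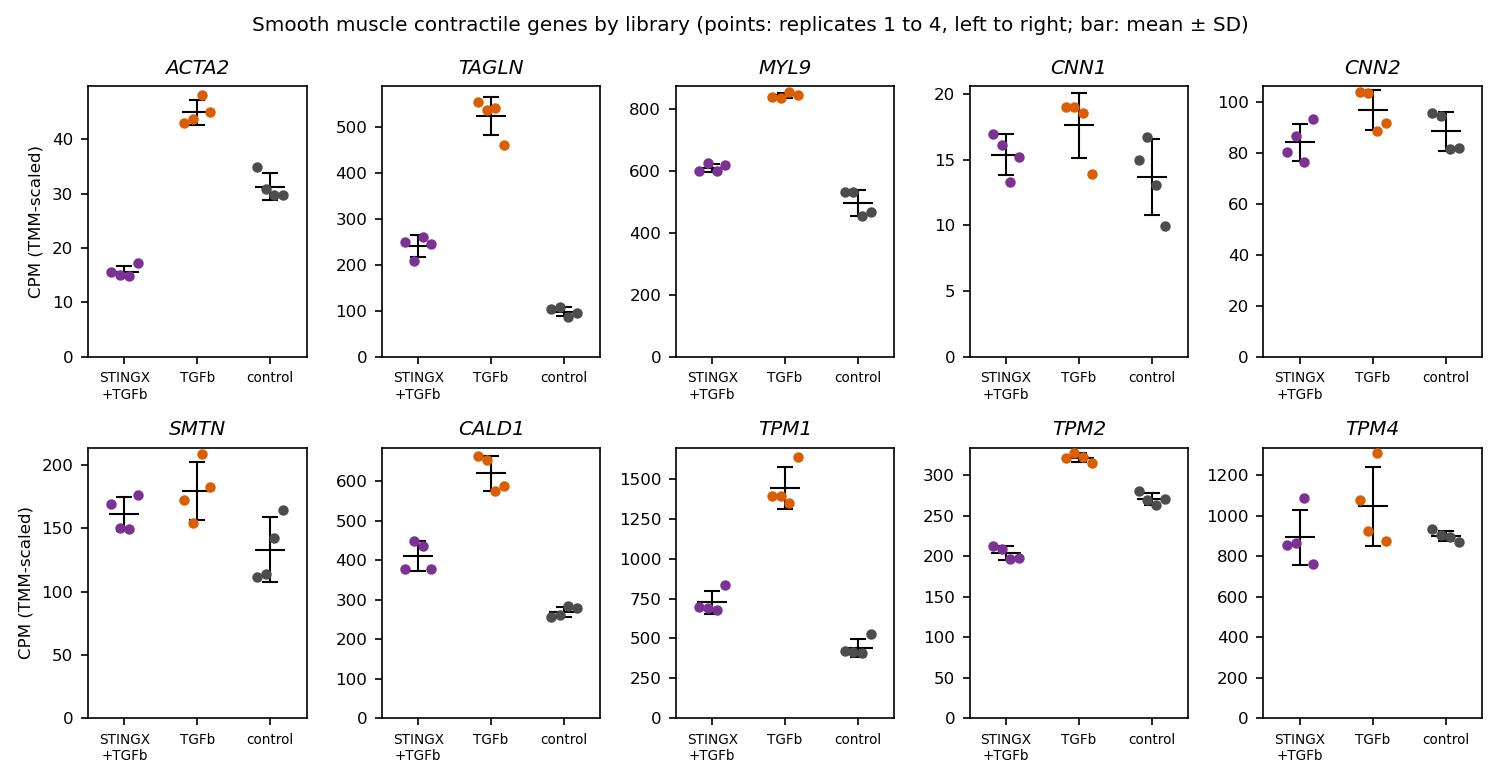
Scaled CPM (vertical axes, from 0) of each of the 10 genes in the 12 libraries; points are libraries, replicates 1 to 4 from left to right in each group, and bars are mean ± SD. TAGLN, MYL9, CALD1 and TPM1 form 3 separate levels, with STINGX and TGFb between TGFb and control, whereas ACTA2 and TPM2 are lowest with STINGX and TGFb.

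TGFb raised 7 of the 10 genes relative to controls and lowered 0. TAGLN, MYL9, CALD1, TPM1, ACTA2, TPM2 and SMTN rose, and CNN1, CNN2 and TPM4 did not pass the threshold, which was an adjusted p under 0.05 (edgeR's quasi-likelihood test, Benjamini-Hochberg over all 21328 genes). Of all genes tested, 26% were called, 13.2% higher and 12.8% lower. The median log2 change over the 10 genes was 0.48, against -0.004 over all genes. In 6 of the 10 all 4 TGFb libraries lay above all 4 controls, as in 13.9% of all genes, while for 27.1% the groups stood apart in one direction or the other. Without adjustment 8 of the 10 passed, all higher, and DESeq2 and limma-voom also called 7 higher and 0 lower.

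STINGX before TGFb lowered 6 of the 10 relative to TGFb alone and raised 0. ACTA2, TAGLN, TPM1, TPM2, CALD1 and MYL9 fell, and CNN1, CNN2, SMTN and TPM4 did not pass. Of all genes, 27.5% were called, 13.8% lower and 13.7% higher. The median log2 change over the 10 was -0.53, against 0.006 over all genes. In the same 6 genes all 4 libraries with STINGX lay below all 4 with TGFb alone, as in 15.7% of all genes, while for 31.6% the groups stood apart in one direction or the other. By DESeq2 and by limma-voom the counts were also 6 lower and 0 higher.

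Set against controls, cells given STINGX and TGFb had 4 genes higher (TAGLN, TPM1, CALD1 and MYL9), 2 lower (ACTA2 and TPM2) and 4 not called. Of all genes, 34.2% were called, 17.2% higher and 17% lower. The median log2 change over the 10 was 0.23, against 0.004 over all genes. The groups of 4 did not overlap for 4 genes upward and 2 downward, as in 17.8% and 16.7% of all genes (34.5% in all). The 3 comparisons share libraries in pairs, so they are not independent of one another.

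**Figure D2:**
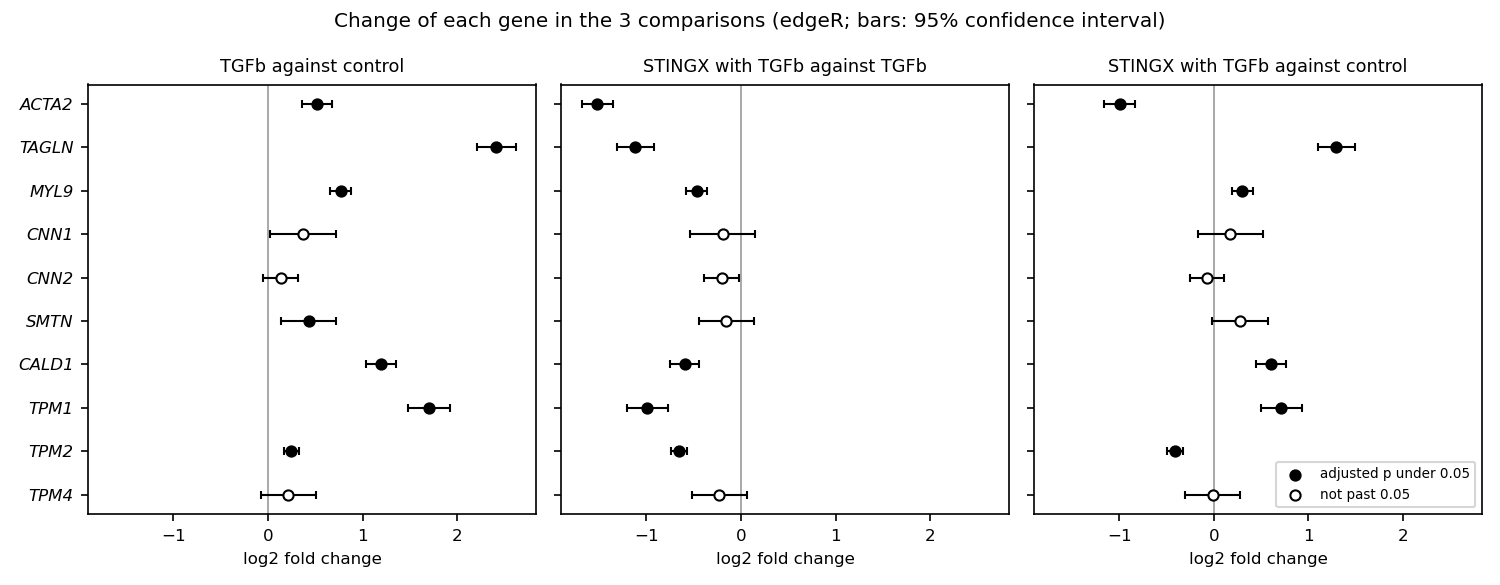
Log2 fold change (horizontal axes) of each of the 10 genes in the 3 comparisons, with unadjusted 95% confidence intervals derived from edgeR's log2 change and F statistic. Filled points passed an adjusted p of 0.05 and open points did not. ACTA2 and TPM2 change side between the left and right panels, and CNN1, CNN2 and TPM4 are open in all 3.

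ACTA2 encodes the actin isoform of smooth muscle (ENSG00000107796, chr10:88935074-88991339, minus strand, GRCh38). It had 15.66, 15.02, 14.86 and 17.21 CPM in the libraries with STINGX and TGFb, 43.04, 43.67, 48.13 and 45.00 CPM with TGFb, and 34.97, 30.79, 29.69 and 29.75 CPM in controls. The 3 groups did not overlap, and all 4 libraries with STINGX lay below all 4 controls. TGFb raised ACTA2 by 0.52 ± 0.07 on the log2 scale (SE; adjusted p = 1.18e-04 by edgeR). With STINGX the log2 change against TGFb was -1.52 ± 0.07 (adjusted p = 9.34e-09 by edgeR), a level 2.86-fold lower. Against controls the log2 change was -0.996 ± 0.07 (adjusted p = 4.26e-07 by edgeR), a level 1.99-fold lower. ACTA2 shares its position with FAS, STAMBPL1 and ACTA2-AS1 on the opposite strand and with AL157394 on its own, and how the authors' counting treated strand is not given in the sources used here. AL157394 averaged 0.594 ± 0.164 CPM with STINGX and TGFb, 0.911 ± 0.315 CPM with TGFb and 1.16 ± 0.363 CPM in controls. FAS, a death receptor, had a log2 change of -0.98 ± 0.21 with TGFb (adjusted p = 0.00427 by edgeR), the opposite direction to ACTA2. STAMBPL1 changed by -0.77 ± 0.11 (adjusted p = 2.14e-04 by edgeR). For STINGX with TGFb against control both went the same way as ACTA2, FAS at -0.83 ± 0.21 (adjusted p = 0.00771 by edgeR) and STAMBPL1 at -0.91 ± 0.11 (adjusted p = 3.65e-05 by edgeR). So did AL157394, at -0.95 ± 0.31 (adjusted p = 0.0336 by edgeR). Against TGFb none of these was called. The part of shared reads was not tested.

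TAGLN encodes transgelin, or SM22, an actin-bundling protein of smooth muscle (ENSG00000149591, chr11:117199370-117207464, plus strand). It had 249.5, 207.7, 261.7 and 246.6 CPM with STINGX and TGFb, 554.0, 538.4, 541.6 and 462.3 CPM with TGFb, and 104.1, 108.0, 86.2 and 95.05 CPM in controls. The groups formed 3 separate levels with STINGX and TGFb in the middle. The TGFb change was the largest of the 10, at 2.41 ± 0.09 on the log2 scale (adjusted p = 9.30e-10 by edgeR), or 5.33-fold. STINGX with TGFb against TGFb gave -1.12 ± 0.09 (adjusted p = 8.33e-07 by edgeR), and against control 1.30 ± 0.09 (adjusted p = 2.09e-07 by edgeR). AP000892 overlaps TAGLN on the same strand, so part of its reads may be TAGLN's or the reverse; it averaged 4.91 ± 0.0710 CPM with STINGX and TGFb, 6.0 ± 0.914 CPM with TGFb and 3.39 ± 0.937 CPM in controls. PCSK7, on the opposite strand, was not called in any of the 3 comparisons.

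MYL9 encodes the light chain whose phosphorylation switches on smooth muscle and non-muscle myosin (ENSG00000101335, chr20:36541497-36551447, plus strand). It had 600.1, 625.5, 599.5 and 618.7 CPM with STINGX and TGFb, 839.0, 838.0, 855.2 and 847.2 CPM with TGFb, and 531.7, 532.6, 454.6 and 466.9 CPM in controls. The 3 groups did not overlap, and the replicates of the TGFb group lay closest together. Its log2 change was 0.77 ± 0.05 for TGFb against control (adjusted p = 1.56e-07 by edgeR). It was -0.47 ± 0.05 for STINGX with TGFb against TGFb (adjusted p = 1.47e-05 by edgeR) and 0.30 ± 0.05 against control (adjusted p = 4.97e-04 by edgeR).

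CALD1 encodes caldesmon, which holds actin filaments and damps the myosin ATPase (ENSG00000122786, chr7:134744252-134970729, plus strand). It had 377.0, 450.0, 436.8 and 378.0 CPM with STINGX and TGFb, 663.5, 654.4, 575.7 and 587.7 CPM with TGFb, and 257.8, 261.4, 283.2 and 278.6 CPM in controls. The groups stood at 3 levels without overlap, again with STINGX and TGFb in the middle. The log2 changes were 1.20 ± 0.07 for TGFb against control (adjusted p = 5.45e-08 by edgeR), -0.60 ± 0.07 for STINGX with TGFb against TGFb (adjusted p = 3.08e-05 by edgeR) and 0.60 ± 0.07 for STINGX with TGFb against control (adjusted p = 2.30e-05 by edgeR).

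TPM1 encodes the alpha tropomyosin (ENSG00000140416, chr15:63042632-63071915, plus strand). It had 695.8, 692.8, 679.5 and 833.0 CPM with STINGX and TGFb, 1393, 1395, 1346 and 1633 CPM with TGFb, and 422.4, 413.7, 407.6 and 525.1 CPM in controls. The groups did not overlap, and replicate 4 was the highest library of each. The log2 changes were 1.71 ± 0.10 for TGFb against control (adjusted p = 7.92e-08 by edgeR), -0.99 ± 0.10 for STINGX with TGFb against TGFb (adjusted p = 8.71e-06 by edgeR) and 0.71 ± 0.10 for STINGX with TGFb against control (adjusted p = 1.06e-04 by edgeR). Leaving out replicate 4 of every group, an alternative chosen after seeing the data, gave 1.73, -0.999 and 0.73. TPM1-AS, on the opposite strand, followed the same order, with 29.8 ± 2.66 CPM with STINGX and TGFb, 51.6 ± 12.6 CPM with TGFb and 14.4 ± 3.20 CPM in controls, and the part of reads from TPM1 in these values was not tested.

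TPM2 encodes the beta tropomyosin (ENSG00000198467, chr9:35681992-35690056, minus strand), and no other tested gene overlaps it. It had 213.1, 209.2, 196.6 and 197.6 CPM with STINGX and TGFb, 321.7, 327.7, 322.5 and 315.3 CPM with TGFb, and 281.0, 268.9, 263.7 and 270.4 CPM in controls. As with ACTA2, the libraries with STINGX lay below the controls without overlap. The rise with TGFb was small and outside the spread, at 0.25 ± 0.04 (adjusted p = 2.50e-04 by edgeR). STINGX with TGFb gave -0.66 ± 0.04 against TGFb (adjusted p = 4.01e-08 by edgeR) and -0.41 ± 0.04 against control (adjusted p = 2.62e-06 by edgeR).

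The share of the TGFb rise that was left with STINGX puts these 2 patterns side by side, counted on mean CPM above control and given with the range over leaving out 1 library at a time. It was 33.6% for TAGLN (32.0% to 36.2%), 32.9% for MYL9 (30.1% to 35.1%), 40.1% for CALD1 (36.3% to 43.2%), 28.3% for TPM1 (24.7% to 30.3%) and 60.7% for SMTN (50.2% to 76.9%), whose groups overlapped. For ACTA2 it was -114% (-124% to -96.7%) and for TPM2 -132% (-143% to -117%), negative where the level with STINGX was below control.

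CNN1, CNN2 and TPM4 were not called in any of the 3 comparisons. CNN1 encodes the calponin of differentiated smooth muscle (ENSG00000130176, chr19:11538767-11550322, plus strand). It had 16.95, 16.12, 13.30 and 15.16 CPM with STINGX and TGFb, 19.01, 18.99, 18.54 and 13.90 CPM with TGFb, and 14.98, 16.74, 13.03 and 9.94 CPM in controls. The libraries with STINGX and TGFb overlapped the controls, and the TGFb group overlapped both through its replicate 4 alone. Its log2 change with TGFb was 0.37 ± 0.15 (95% interval 0.02 to 0.71, adjusted p = 0.101 by edgeR), and the adjusted p was 0.0450 without that library and 0.0418 without control 2. With STINGX it was -0.19 ± 0.15 against TGFb (interval -0.54 to 0.15, adjusted p = 0.387 by edgeR) and 0.17 ± 0.15 against control (interval -0.17 to 0.52, adjusted p = 0.422 by edgeR).

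CNN2, a calponin found in many cell types (ENSG00000064666, chr19:1026586-1039068, plus strand), averaged 84.3 ± 7.34 CPM with STINGX and TGFb, 97.1 ± 7.89 CPM with TGFb and 88.7 ± 7.71 CPM in controls. Its log2 change was 0.13 ± 0.08 for TGFb against control (adjusted p = 0.273 by edgeR) and -0.20 ± 0.08 for STINGX with TGFb against TGFb (95% interval -0.39 to -0.02, adjusted p = 0.0825 by edgeR). Leaving out replicate 4 of the STINGX group moved the change against TGFb past the threshold, at an adjusted p of 0.0451. Against control it was -0.07 ± 0.08 (interval -0.25 to 0.11, adjusted p = 0.538 by edgeR), and 0.0074 with scaling by library size alone.

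TPM4, a tropomyosin of non-muscle cells (ENSG00000167460, chr19:16067021-16103002, plus strand), had 857.9, 867.9, 1087 and 762.2 CPM with STINGX and TGFb, 1078, 923.0, 1310 and 876.0 CPM with TGFb, and 932.6, 907.1, 894.1 and 870.4 CPM in controls. The controls lay close together, whereas the other groups spread widely and overlapped them. The log2 changes were 0.22 ± 0.13 for TGFb against control (95% interval -0.07 to 0.51, adjusted p = 0.263 by edgeR), -0.23 ± 0.13 for STINGX with TGFb against TGFb (interval -0.52 to 0.06, adjusted p = 0.227 by edgeR) and -0.01 ± 0.13 for STINGX with TGFb against control (interval -0.30 to 0.28, adjusted p = 0.955 by edgeR), a value that turned to 0.07 with scaling by library size alone.

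SMTN encodes smoothelin, an actin-associated protein of contractile smooth muscle (ENSG00000183963, chr22:31064105-31104757, plus strand). It had 169.3, 150.2, 149.8 and 175.9 CPM with STINGX and TGFb, 172.2, 154.2, 208.7 and 183.0 CPM with TGFb, and 111.6, 113.5, 142.7 and 164.7 CPM in controls. The groups overlapped, as control 4 reached the levels of the treated libraries. It was called higher with TGFb at 0.43 ± 0.13 (adjusted p = 0.0290 by edgeR), but in 10 of 26 alternative settings that call was lost, with adjusted p from 0.00484 to 0.116 over all of them. Leaving out replicate 3 or 4 of the TGFb group gave 0.0830 and 0.0647, and leaving out control 1 or 2 gave 0.0793 and 0.0806. STINGX with TGFb gave -0.15 ± 0.13 against TGFb (95% interval -0.45 to 0.14, adjusted p = 0.429 by edgeR) and 0.28 ± 0.13 against control (interval -0.02 to 0.57, adjusted p = 0.125 by edgeR, and 0.0219 without control 4).

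The tropomyosin genes differed among themselves, so their make-up was set out on the per-length scale, a measure chosen after the values were seen. The summed FPKM of TPM1, TPM2, TPM3 and TPM4 was 178.4 ± 6.85 with STINGX and TGFb, 242.6 ± 10.2 with TGFb and 167.5 ± 4.20 in controls. TPM1 held 26.2% ± 3.19 of that sum with STINGX and TGFb, 34.7% ± 3.62 with TGFb and 16.0% ± 1.82 in controls, and these groups did not overlap. TPM2 held 31.8% ± 1.96 with STINGX and TGFb, 33.5% ± 1.42 with TGFb and 42.6% ± 0.563 in controls, the controls standing above both other groups. TPM4 held 35.7% ± 4.24 with STINGX and TGFb, 27.9% ± 4.30 with TGFb and 36.4% ± 1.21 in controls. TPM3, a further non-muscle tropomyosin outside the 10 members, held 6.37% ± 0.200 with STINGX and TGFb, 3.88% ± 0.222 with TGFb and 4.98% ± 0.0962 in controls. The shares are given as a description, and no test of them is reported. TPM2's share was lower with TGFb although its scaled count was higher; the summed FPKM that it is divided by was higher too.

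**Figure D3:**
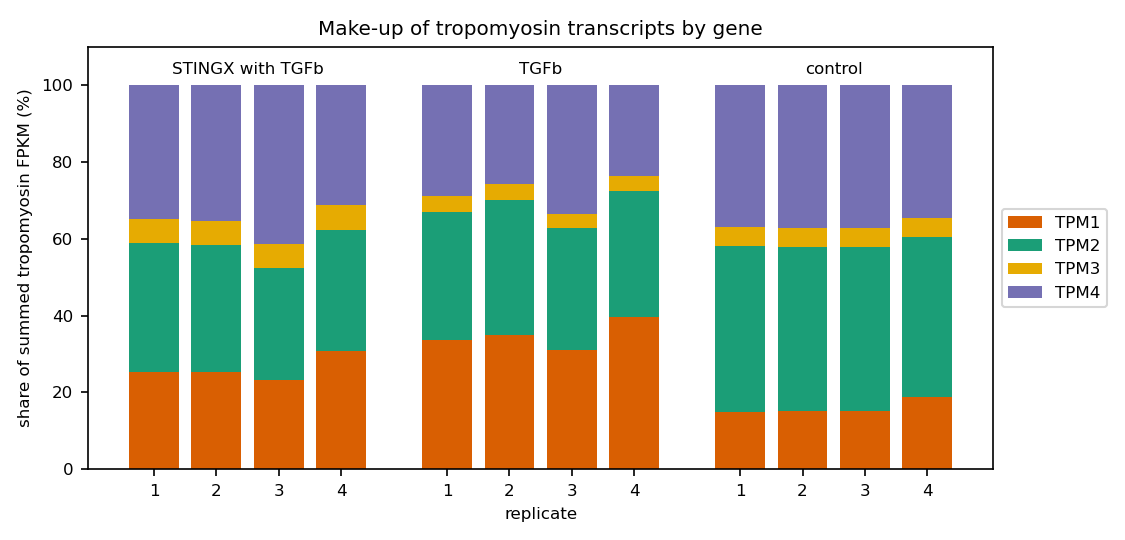
Share of the summed FPKM of 4 tropomyosin genes (vertical axis, percent) in each of the 12 libraries, in the groups STINGX with TGFb, TGFb and control. TPM1, at the bottom of each bar, averages 26.2% with STINGX and TGFb, 34.7% with TGFb and 16.0% in controls, and is highest in replicate 4 of each group.

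TPM1 makes its tropomyosins by alternative starts and exons, and 33 of its 38 transcripts are described in GENCODE release 29, while 27 passed the filter for testing. The 16 transcripts that begin at the upstream end of the gene, where the long tropomyosins start, held 80.7% ± 6.37 of TPM1 counts with STINGX and TGFb, 79.1% ± 7.07 with TGFb and 78.5% ± 8.15 in controls. The 9 that begin around the internal start, typical of the short tropomyosins, held 4.65% ± 1.10 with STINGX and TGFb, 4.47% ± 0.593 with TGFb and 5.35% ± 1.95 in controls. The groups overlapped in both classes. Most of the second class was TPM1-226, at 3.62% with STINGX and TGFb, 3.12% with TGFb and 3.04% in controls. TPM1-226 is a coding form of 275 codons, against 245 in TPM1-204 and 248 in TPM1-208. The second class is thus not a measure of the short tropomyosins alone. The first class also takes in the retained introns TPM1-211, TPM1-228 and TPM1-234 and the 2-exon TPM1-233, so it is not a measure of the long tropomyosins alone. It held 88.5% to 89.9% in replicate 4 of the 3 groups, where TPM1-234 was counted, and 69.1% to 80.3% in the other 9 libraries.

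TGFb raised 12 of the 27 tested TPM1 transcripts and lowered 0, where 2.33% of all 79677 transcripts tested were called, 1.17% higher and 1.17% lower. STINGX before TGFb raised 0 and lowered 3 relative to TGFb, where 2.4% of all transcripts were called, 1.12% higher and 1.29% lower. Without adjustment 0 were higher and 15 lower, where 7.17% of all were higher and 6.6% lower. The log2 changes of the 12 raised by TGFb ran from 1.18 to 2.46. Against controls STINGX with TGFb had 4 higher and 0 lower, where 3.45% of all were called, 1.6% higher and 1.85% lower. Counts of transcripts are estimates that divide shared reads, and transcripts of 1 gene are not independent of each other.

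TPM1-202, a coding transcript of 284 codons with 10 exons, had 7211, 8276, 4083 and 3688 estimated counts with STINGX and TGFb, 15462, 16032, 11943 and 6570 with TGFb, and 3603, 4878, 3039 and 2055 in controls. Replicate 4 was the lowest library of each group. Its log2 change with TGFb was 2.004 ± 0.35 (adjusted p = 0.0113 by edgeR), and with STINGX against TGFb -1.38 ± 0.34 (adjusted p = 0.0695 by edgeR). TPM1-206, also of 284 codons, changed by 1.998 ± 0.37 with TGFb (adjusted p = 0.0173 by edgeR) and by -1.21 ± 0.36 with STINGX against TGFb (adjusted p = 0.139 by edgeR). TPM1-230, again a coding form of 284 codons, did not pass in any comparison; its share averaged 5.43% with STINGX and TGFb, 2.66% with TGFb and 8.35% in controls. In replicates 1 and 2 the share was 9.31% and 8.45% with STINGX and TGFb, and 12.1% and 14.9% in controls. In replicates 3 and 4 it was 2.13% and 1.83% with STINGX and TGFb, and 3.33% and 3.05% in controls. The TGFb libraries held 1.51% to 3.23%.

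TPM1-233, a 2-exon form of 106 codons, stood at 3 levels that did not overlap. It had 8553, 8908, 7443 and 8535 estimated counts with STINGX and TGFb, 11914, 12456, 9577 and 9580 with TGFb, and 3072, 3000, 3649 and 3959 in controls. Its log2 changes were 1.83 ± 0.08 for TGFb against control (adjusted p = 2.53e-07 by edgeR), -0.65 ± 0.07 for STINGX with TGFb against TGFb (adjusted p = 6.70e-04 by edgeR) and 1.18 ± 0.07 for STINGX with TGFb against control (adjusted p = 6.95e-06 by edgeR). TPM1-228, annotated as a retained intron, likewise rose with TGFb by 1.70 ± 0.17 (adjusted p = 3.25e-04 by edgeR) and fell with STINGX against TGFb by 0.90 on the log2 scale (SE 0.17, adjusted p = 0.0189 by edgeR). ENST00000651344, which is not in GENCODE release 29, held 10.0% of TPM1 counts with STINGX and TGFb, 11.2% with TGFb and 10.3% in controls, and its log2 change with TGFb was 1.78 ± 0.55 (adjusted p = 0.162 by edgeR).

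One TPM1 transcript set replicate 4 apart in every group. TPM1-234 (ENST00000644204), annotated as a retained intron, was given 24728 estimated counts in replicate 4 of STINGX with TGFb, 39694 in replicate 4 of TGFb and 16973 in replicate 4 of control, and 0 in the other 9 libraries. That was 43.3%, 46.7% and 47.9% of TPM1 counts in those libraries. No other transcript of any gene had over 1000 counts in replicate 4 of every group and 0 elsewhere, and no transcript did so for replicates 1, 2 or 3. With the counts of TPM1-234 subtracted, TPM1 had 472.5, 870.1 and 273.6 CPM in these 3 libraries, the lowest of each group rather than the highest. The subtraction takes none of these reads as belonging to other TPM1 transcripts, which was not tested. TPM1-234 did not pass the filter and was not tested. Without replicate 4 of every group, 8 transcripts of TPM1 and CALD1 were called higher with TGFb, against 14 with all libraries. That setting has fewer libraries, and its share of calls over all transcripts is not given here.

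**Figure D4:**
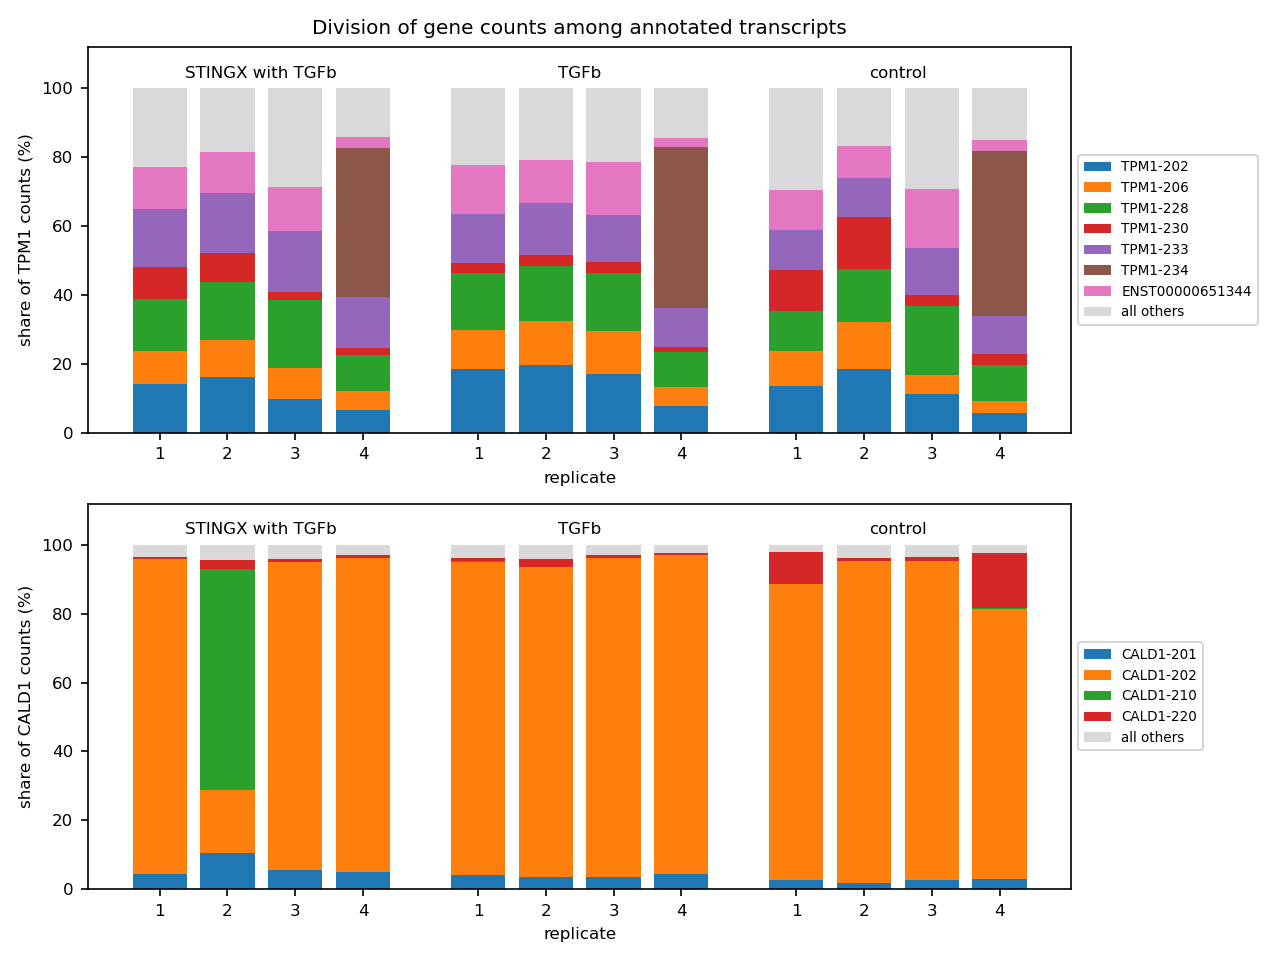
Share of the estimated counts of TPM1 (top) and CALD1 (bottom) given to each named transcript (vertical axes, percent) in the 12 libraries, in the groups STINGX with TGFb, TGFb and control. TPM1-234 takes 43.3% to 47.9% in replicate 4 of each group and 0 elsewhere, and CALD1-210 takes 64.2% in replicate 2 of STINGX with TGFb.

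Caldesmon is made in a long form, typical of smooth muscle, and a short form found in most other cells. The short form led here: CALD1-202, of 538 codons, held 72.6% of CALD1 counts with STINGX and TGFb, 91.7% with TGFb and 87.7% in controls. In replicate 2 of STINGX with TGFb it held 18.4%, against 89.4% to 91.6% in the other 3 libraries of that group, and CALD1-210, annotated for nonsense-mediated decay, held 64.2% there. The CALD1 total of that library, 450.0 CPM, was the highest of its group. CALD1-210 had 21371 estimated counts in that library and at most 35 in any other. Of the 9 tested CALD1 transcripts, TGFb raised 2 and lowered 0 (2.33% of all transcripts were called), and STINGX before TGFb raised 0 and lowered 0 relative to TGFb by edgeR (2.4% of all). Without adjustment 1 was higher and 3 lower in the second comparison, where 7.17% of all transcripts were higher and 6.6% lower. CALD1-220, annotated as a retained intron, held 1.17% with STINGX and TGFb, 1.15% with TGFb and 6.79% in controls, where 2 libraries at 9.20% and 15.95% stood above the other controls.

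CALD1-201, of 793 codons, is the longest annotated coding form. It had 1215, 3468, 1474 and 1288 estimated counts with STINGX and TGFb, 1572, 1356, 1030 and 1326 with TGFb, and 437, 280, 482 and 564 in controls. Both treated groups lay above all controls, and they overlapped each other. The 3468 counts belong to replicate 2, the library in which CALD1-210 took 64.2% of CALD1. Its log2 change was 1.75 ± 0.32 for TGFb against control (adjusted p = 0.0170 by edgeR), 0.21 ± 0.31 for STINGX with TGFb against TGFb (adjusted p = 0.864 by edgeR) and 1.96 ± 0.32 for STINGX with TGFb against control (adjusted p = 0.00711 by edgeR). CALD1-202 changed by 1.20 ± 0.35 with TGFb (adjusted p = 0.133 by edgeR) and by -0.93 ± 0.35 with STINGX against TGFb (adjusted p = 0.252 by edgeR). Without replicate 2 of STINGX with TGFb, the change against TGFb was -0.22 ± 0.23 for CALD1-201 (adjusted p = 0.797 by edgeR) and -0.62 ± 0.08 for CALD1-202 (adjusted p = 0.00305 by edgeR), and CALD1-202 also passed for TGFb against control (1.19 ± 0.07, adjusted p = 1.81e-05 by edgeR). Whether the 2 forms differ in their change was not tested.

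Other genes of the contractile apparatus moved in both directions with TGFb. Of 30 listed, 27 were tested (DES, TAGLN3 and ITGA8 were not), and TGFb raised 10 and lowered 5, where 26% of all genes were called, 13.2% higher and 12.8% lower. The median log2 change was 0.15, and 0.09 with scaling by library size alone. KCNMB1, a subunit of the calcium-activated potassium channel of smooth muscle, averaged 3.25 ± 0.313 CPM with TGFb and 0.735 ± 0.161 CPM in controls, a log2 change of 2.14 ± 0.22 (adjusted p = 1.17e-05 by edgeR). ACTG2, the enteric smooth muscle actin, averaged 14.6 ± 0.929 CPM with TGFb and 6.68 ± 0.939 CPM in controls (1.13 ± 0.11, adjusted p = 5.43e-06 by edgeR). PDLIM7, a LIM protein on actin filaments, averaged 230.1 ± 15.5 CPM with TGFb and 118.6 ± 7.25 CPM in controls (0.96 ± 0.06, adjusted p = 5.82e-08 by edgeR). SYNPO2, an actin-binding protein of the Z-disc, went the other way, with 1.54 ± 0.821 CPM with TGFb and 5.98 ± 1.32 CPM in controls (-1.95 ± 0.37, adjusted p = 0.00194 by edgeR).

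STINGX before TGFb lowered 11 of these 27 relative to TGFb and raised 1, TPM3, where 27.5% of all genes were called, 13.8% lower and 13.7% higher. The median was -0.24, and -0.10 with scaling by library size alone. TAGLN2, a transgelin of non-muscle cells, averaged 435.4 ± 10.7 CPM with STINGX and TGFb and 781.7 ± 33.2 CPM with TGFb (-0.84 ± 0.06, adjusted p = 3.03e-07 by edgeR). MYL12B, a non-muscle regulatory light chain, averaged 520.5 ± 9.82 CPM with STINGX and TGFb and 903.2 ± 52.1 CPM with TGFb (-0.80 ± 0.06, adjusted p = 3.76e-07 by edgeR). ACTB, cytoplasmic beta actin, changed by -0.58 ± 0.15 (adjusted p = 0.0154 by edgeR) and KCNMB1 by -0.57 ± 0.18 (adjusted p = 0.0322 by edgeR). KCNMB1 passed in 13 of 26 alternative settings and ACTB in 24, with adjusted p up to 0.164 and 0.104.

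Against controls, STINGX with TGFb had 6 of the 27 higher and 10 lower, where 34.2% of all genes were called, 17.2% higher and 17% lower. The median was 0.006, and it was -0.04 with upper quartile scaling and 0.08 with library size alone. MYLK, the kinase that phosphorylates the regulatory light chain, averaged 164.3 ± 12.2 CPM with STINGX and TGFb and 320.4 ± 25.1 CPM in controls (-0.96 ± 0.06, adjusted p = 1.36e-07 by edgeR). With TGFb alone MYLK was already lower, at 206.3 ± 2.33 CPM (-0.64 ± 0.06 against control, adjusted p = 6.92e-06 by edgeR). Its change for STINGX with TGFb against TGFb was -0.33 ± 0.06 (adjusted p = 0.00156 by edgeR). SYNPO2 was also lower, at -1.65 ± 0.34 (adjusted p = 0.00264 by edgeR), and KCNMB1 (1.57 ± 0.23, adjusted p = 1.79e-04 by edgeR) and ACTG2 (0.89 ± 0.11, adjusted p = 3.37e-05 by edgeR) were higher. Scaling by library size alone, which puts the median of all genes at 0.15 on the log2 scale for STINGX with TGFb against TGFb, gave 1 higher and 10 lower for that comparison and 7 higher and 8 lower for STINGX with TGFb against control.

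**Figure D5:**
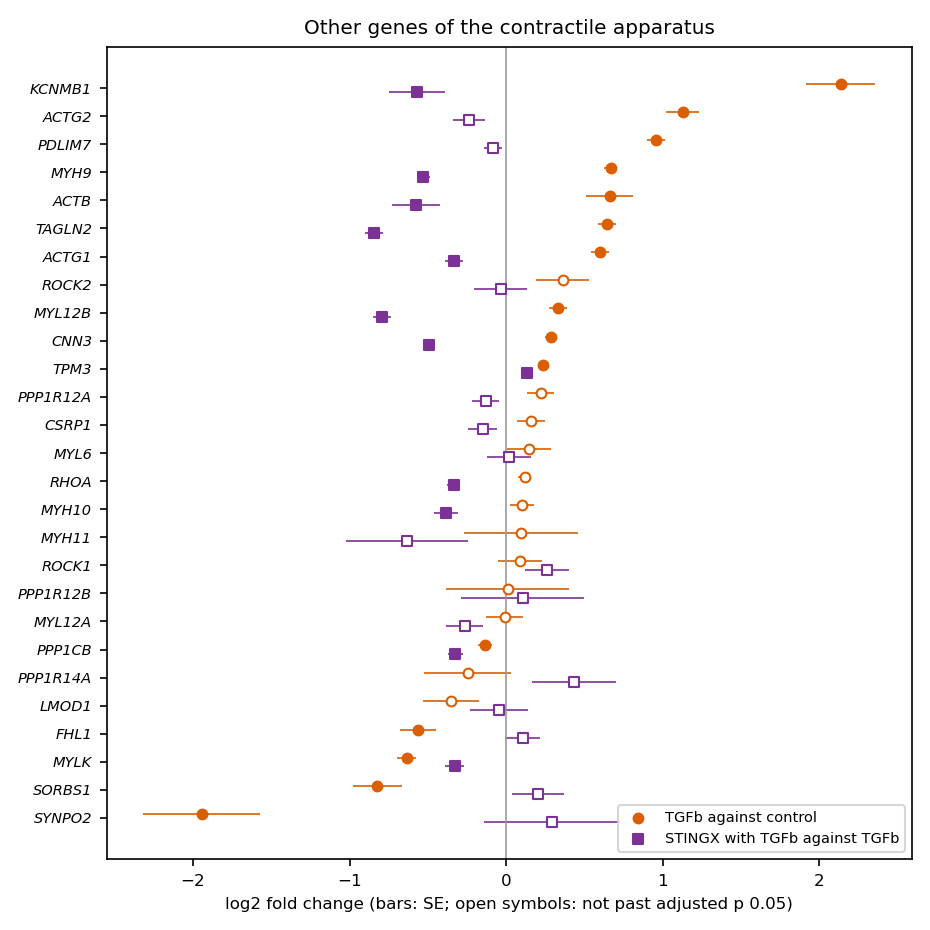
Log2 fold change (horizontal axis, bars are SE) of the 27 tested genes of the contractile apparatus outside the 10 members, for STINGX with TGFb against TGFb (squares) and TGFb against control (circles); open symbols did not pass an adjusted p of 0.05. Among filled symbols, 11 squares lie below 0 and 1 above, and 10 circles lie above 0 and 5 below.

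Of 20 genes for SRF, SMAD and related regulators, all tested, TGFb raised 4 and lowered 2, with a median of 0.23, where 26% of all genes were called, 13.2% higher and 12.8% lower. MYOCD, the cofactor of SRF named for its role in heart and smooth muscle, averaged 33.7 ± 3.10 CPM with TGFb and 10.4 ± 0.763 CPM in controls (1.69 ± 0.08, adjusted p = 9.05e-09 by edgeR). SRF itself averaged 144.8 ± 3.596 CPM with TGFb and 96.1 ± 4.06 CPM in controls (0.59 ± 0.04, adjusted p = 1.97e-07 by edgeR), and ELK4, an SRF partner of the ETS family, rose by 0.25 ± 0.06 (adjusted p = 0.00803 by edgeR). ELK4 passed in 22 of 26 alternative settings for this comparison, with adjusted p up to 0.0958. SMAD3, which carries the TGFb signal to the nucleus, averaged 159.0 ± 1.60 CPM with TGFb and 315.5 ± 11.3 CPM in controls (-0.99 ± 0.04, adjusted p = 5.85e-10 by edgeR).

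STINGX before TGFb raised 1 of the 20 relative to TGFb and lowered 3, where 27.5% of all genes were called, 13.7% higher and 13.8% lower. The median was -0.06, and 0.09 with scaling by library size alone. KLF4, which opposes the smooth muscle programme, averaged 9.62 ± 0.879 CPM with STINGX and TGFb and 23.0 ± 1.60 CPM with TGFb (-1.26 ± 0.18, adjusted p = 1.64e-04 by edgeR). SRF changed by -0.37 ± 0.04 (adjusted p = 1.60e-05 by edgeR), SMAD3 by -0.17 ± 0.04 (adjusted p = 0.00265 by edgeR) and ELK4 by 0.20 ± 0.06 (adjusted p = 0.0271 by edgeR). Over 26 alternative settings SMAD3 passed in 22 and ELK4 in 20 for this comparison, with adjusted p up to 0.637 and 0.0966. MYOCD averaged 32.8 ± 1.65 CPM with STINGX and TGFb and lay above control, at 1.66 ± 0.08 against control (adjusted p = 1.03e-08 by edgeR). Against controls STINGX with TGFb had 4 of the 20 higher and 5 lower, where 34.2% of all genes were called, 17.2% higher and 17% lower. The median was 0.03, and it was 0.11 with library size alone and -0.02 with upper quartile scaling. Among those called were KLF4 at -1.20 ± 0.18 (adjusted p = 1.84e-04 by edgeR), SMAD3 at -1.16 ± 0.04 (adjusted p = 2.64e-10 by edgeR) and FOXO4 at -0.67 ± 0.21 (adjusted p = 0.0253 by edgeR), which passed in 20 of 26 alternative settings. With scaling by library size alone the split was 3 higher and 4 lower for TGFb against control, 2 and 2 for STINGX with TGFb against TGFb, and 5 and 5 for STINGX with TGFb against control.

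Among 13646 genes with a mean of at least 2 CPM, the 3 whose log2 CPM followed TAGLN most closely over the 12 libraries were RNF150 (Pearson r = 0.997), TNC (0.993) and FN1 (0.993). FN1, the matrix protein fibronectin, averaged 6462 CPM with STINGX and TGFb, 15008 CPM with TGFb and 2102 CPM in controls, the same order of groups as TAGLN. Those closest to ACTA2 were LMNB2 (0.993), ZC3HAV1 (0.991) and ACTN4 (0.991). ACTN4, a non-muscle alpha-actinin, averaged 478.0 CPM with STINGX and TGFb, 664.0 CPM with TGFb and 586.4 CPM in controls. These values describe 12 libraries in 3 groups, and much of each r is the difference between the groups.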

How the data were processed

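RNA was purified on oligo-dT beads, made into stranded libraries and sequenced as read pairs, per the labels' protocols. The submitters' processing notes name cutadapt (adapter trimming), HISAT2 (spliced alignment), StringTie (transcript quantification), edgeR and the build GRCh38, with no versions; neither the annotation release nor whether counting used strand is given in the sources used here. The deposited values are estimated counts for genes and for transcripts, all whole numbers, and FPKM values made by the authors. In the deposited files each gene's estimated count equals the sum over its transcripts, and a gene with no counts is listed at 0.0001 FPKM, which was read as 0. Because reads shared between transcripts or overlapping genes were divided by software before deposit, transcript values carry more error than gene values.

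Groups were taken from the labels. Counts were tested with edgeR 4.0.16 (R 4.3.3): filterByExpr, TMM scaling, the quasi-likelihood F test with group as the only term over all 12 libraries (9 residual degrees of freedom), Benjamini-Hochberg over all genes or all transcripts tested, and a threshold of 0.05. CPM values are TMM-scaled. Each SE is the absolute log2 change divided by the square root of the F statistic. Intervals are 95%, from that SE and the t distribution with 9 degrees of freedom. They are not adjusted for the number of genes and need not match the p-values of the test. Shares of transcript counts are described with no test. For the shares of tropomyosin FPKM, chosen after the values were seen, an exact permutation test was run and is not reported. The GENCODE release 29 annotation gave coordinates and transcript types. On simulated data with known changes the gene test recovered most changes, the transcript test recovered few, and a planned test of transcript usage made mostly false calls and is not reported. Alternatives were other scalings, filters and tools (limma 3.58.1, DESeq2 1.42.0), FPKM values, a replicate block and leaving out each library.

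The members and gene lists were chosen with earlier results of these data known. All 10 members are named. From each of the 2 lists, up to 4 genes per comparison are named, those called with the largest change and a mean of at least 2 CPM. Transcripts are named if they hold at least 5% of TPM1 or CALD1 counts on average in any group.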

Additional observations from a re-analysis of the deposited data

Results flagged for a closer look

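In groups of 4 libraries a library was picked out where its gap to the nearest other was most of the group's range, by Dixon's test; chance picks out about 1 group in 20, and 30 groups of gene values and 45 groups of shares were looked at. There were 16 such values, 5 of them gene values. Of these 16, the values from replicate 4 come first. TPM1 was high in replicate 4 of all 3 groups, at 833.0 CPM in STINGX with TGFb, 1633 CPM in TGFb and 525.1 CPM in control. TPM1-234 held 43.3%, 46.7% and 47.9% of TPM1 counts in the same libraries of STINGX with TGFb, TGFb and control, against 0 in all others. In replicate 4 of STINGX with TGFb, ENST00000651344 held 3.10% of TPM1 counts, and in replicate 4 of TGFb, TPM1-228 held 10.2%, both lower than in the other libraries of their group. ENST00000651344 was low in replicate 4 of the other 2 groups too, at 2.81% in TGFb (12.6% to 15.4% in its other libraries) and 3.05% in control (9.44% to 17.1%). In replicate 4 of control, TPM1 held 18.8% of the summed tropomyosin FPKM, above the other controls, and TPM3 (4.83%) and TPM4 (34.6%) lay below them. In replicate 4 of TGFb, TAGLN had 462.3 CPM and CNN1 13.9 CPM, the lowest of that group.

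Replicate 2 of STINGX with TGFb stood apart in CALD1, where CALD1-210 held 64.2% and CALD1-202 held 18.4% of the counts. In replicate 3 of STINGX with TGFb, TPM3 held 6.07% of the summed tropomyosin FPKM, the lowest of its group.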

How the results depend on the processing

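Over 26 alternative settings the calls of TAGLN, MYL9, CALD1, TPM1, ACTA2 and TPM2 kept their direction and stayed past the threshold in all 3 comparisons. The number of members called was 6 to 8 for TGFb against control, 6 to 7 for STINGX with TGFb against TGFb and 6 to 7 for STINGX with TGFb against control. Leaving out 1 library gave 6 to 7 in each comparison, with 4850 to 5342 genes called for TGFb against control (5543 with all libraries), 5056 to 5913 for STINGX with TGFb against TGFb (5864) and 6418 to 7236 for STINGX with TGFb against control (7296).

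SMTN with TGFb was lost with library size alone (adjusted p = 0.0800 by edgeR), no filter (0.0589), only the 2 groups compared (0.0689) and limma on FPKM (0.0686 with a pseudocount of 1, 0.0668 with 0.1, 0.116 with no filter). For STINGX with TGFb against control, CNN2 turned to 0.0074 with library size alone, 0.0053 with limma on log2(FPKM + 1), filtered or not, and 0.0055 on log2(FPKM + 0.1). In that comparison TPM4 turned to 0.066 with library size alone, 0.053 with limma on log2(FPKM + 1), filtered or not, 0.054 on log2(FPKM + 0.1), and 0.040 without replicate 4 of every group. Leaving out 1 library gave TPM4 values of -0.12 to 0.057, above 0 without replicate 1 (0.0075), 2 (0.0015) or 4 of STINGX with TGFb or without control replicate 1 (0.0045). Neither gene was called in any of these; the cause was not tested.

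For transcripts of TPM1 and CALD1, 14 were called for TGFb against control and 8 without replicate 4 of every group, a setting chosen after seeing the data with fewer samples. For STINGX with TGFb against TGFb 3 were called, 7 with at least 1 CPM in 4 libraries (fewer transcripts tested) and 6 with the replicate block. For STINGX with TGFb against control 5 were called, and 3 without replicate 4 of every group. Leaving out 1 library gave 11 to 14, 1 to 4 and 2 to 7 in these 3 comparisons. Of all 79677 transcripts tested in the main setting, 2.33%, 2.4% and 3.45% were called in the same order. Shares over all transcripts in the other settings are not given here. A change in these counts therefore cannot be told apart from a change over all transcripts. The alternatives planned for the transcript usage test were not run, as that test is not reported.

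Over all genes, deviations of same-numbered libraries correlated at -0.038 to 0.045 over 12 pairs, so the numbers were not used to pair libraries. Best matches were to the own number in 10 of 24 cases, where 6 would be met by chance, and TPM1-234 was counted only in replicate 4 of every group. With the replicate block CNN1 passed for TGFb against control (adjusted p = 0.0397 by edgeR) and SMTN for STINGX with TGFb against control (0.0497), and the number of genes called was 5316, 5647 and 7116 in the 3 comparisons above. Scaling changed the balance of calls over all genes: with library size alone 2224 were higher and 3523 lower for TGFb against control (2813 and 2730 with TMM), 4997 and 1890 for STINGX with TGFb against TGFb (2931 and 2933), and 4683 and 2876 for STINGX with TGFb against control (3670 and 3626). Replicates differed beyond counting error, with a chi-square of 42.1 to 89.3 for each degree of freedom over genes.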
